A study of Mus musculus with 32 samples.

Results

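The genes described here encode the nuclear part of oxidative phosphorylation. They were chosen by symbol, as every measured gene whose name starts with Nduf, Sdha to Sdhd, Uqcr, Cox4 to Cox8 or Atp5, without pseudogenes (names with -ps). The rule found 96 of 53558 genes, of which 29 encode accessory subunits, 7 core subunits and 8 assembly factors of complex I, 4 subunits and 4 assembly factors of complex II and 8 subunits of complex III. Another 20 were placed with complex IV and 16 with complex V, in the main by symbol, so these groups can hold genes whose products are not subunits. Ndufa4 was placed with complex IV, of which its product is a subunit. The mitochondrially encoded genes of these complexes are not analysed here.

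Bulk RNA-seq was made from neoplastic cells sorted out of mouse lung tumors that Lenti-Cre had started, so that every group carried KrasLSL-G12D and the Cre reporter Rosa26LSL-tdTomato. KT tumors (4 libraries, no treatment) had wild-type Lkb1, the gene also called Stk11. Non-restored tumors (10 libraries) were Lkb1XTR/XTR, an allele that Cre inactivates and FLPo can turn back on: 6 came from mice with Rosa26 FLPo-ERT2 given corn oil vehicle and 4 from mice without FLPo-ERT2 given tamoxifen. Restored tumors (7 libraries) came from Lkb1XTR/XTR mice with FLPo-ERT2 given tamoxifen in doses of 4 mg, over 2 weeks before harvest. The same non-restored and restored states were also measured on a Trp53flox/flox background, with 7 libraries from 4 non-restored animals (2 given vehicle and 2 tamoxifen) and 4 libraries from 4 restored animals. Tumors were 24 to 27 weeks old in the Trp53 wild-type groups and 16 to 19 weeks old in the Trp53-deficient groups, so age and Trp53 status cannot be told apart. All 11 restored libraries came from females, whereas 3 of 10 non-restored Trp53 wild-type and 2 of 4 KT libraries came from males. In the Trp53-deficient non-restored group animals 2 and 3 were males and animals 1 and 4 females, so sex was unbalanced there too. The study's methods gave KT mice less virus than Lkb1XTR mice, and the mouse numbers it states for the non-restored and restored Trp53 wild-type arms are below the library numbers used here, so some of these libraries came from the same mouse. The labels do not say which, and p-values over these libraries are therefore too small. Sample titles begin with ZR in KT and with SP in the Trp53 wild-type non-restored and restored groups. In the Trp53-deficient groups they begin with JB or SP. What these letters stand for is not stated. In comparisons with KT tumors these letters and the virus dose cannot be told apart from the Lkb1 genotype.

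Oxidative phosphorylation takes place in the inner mitochondrial membrane. Complexes I and II feed electrons from NADH and succinate to ubiquinone, complex III passes them to cytochrome c, complex IV hands them to oxygen, and the proton gradient built on the way drives ATP synthesis at complex V. Most subunits come from nuclear genes that every cell expresses, but complex IV has isoforms limited to some tissues, such as Cox6a2 and Cox7a1 in heart and skeletal muscle and Cox4i2 in lung. LKB1 is the kinase that activates AMPK, a sensor of cellular energy.

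Libraries held 1302482 to 5943951 expected counts. Stk11 stood at 16.6 to 27.3 CPM, counts scaled to a common library size, in KT, 0 to 1.1 CPM in non-restored and 11.6 to 22.4 CPM in restored libraries, and at 0 to 0.8 and 8.5 to 14.9 CPM in the Trp53-deficient non-restored and restored libraries, as their labels state. All 7 markers of lung tumor epithelium were detected in each group, at a summed 6811 to 57100 CPM per library, against 12.4 to 367.2 CPM for 7 immune and 1.11 to 110.3 CPM for 5 endothelial markers. Sums over 6 fibroblast markers ran from 2.00 to 1488 CPM.

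The members were among the abundant transcripts of these cells. Per transcript length, the 88 members other than the tissue-restricted isoforms had group means averaging 2.58 to 1156 TPM, a unit that divides by transcript length, with a median of 162 TPM. Atp5b, the catalytic subunit of ATP synthase, was highest at 1156 TPM, followed by Atp5j at 844 TPM and Ndufa4 at 811 TPM. Levels moved little between the 5 groups: the highest group mean exceeded the lowest by a median of 1.33-fold, and by more than 1.5-fold in 17 of the 88. The 8 restricted isoforms were mostly silent. Cox7b2 and Cox8b had 0 counts in 32 of 32 libraries, Cox8c had 1 count in a single library and Ndufa4l2 had 11 counts in all. Cox4i2, Cox6b2 and Cox7a1 reached 92, 127 and 70 summed counts, each passing 3 counts in 10 libraries. Cox6a2 was the exception, with 1089 summed counts and more than 3 counts in 23 libraries. These 7 isoforms other than Cox6a2 did not pass the filter on low counts in the Trp53 wild-type groups, which left 89 of 96 members for testing there.

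**Figure D1:**
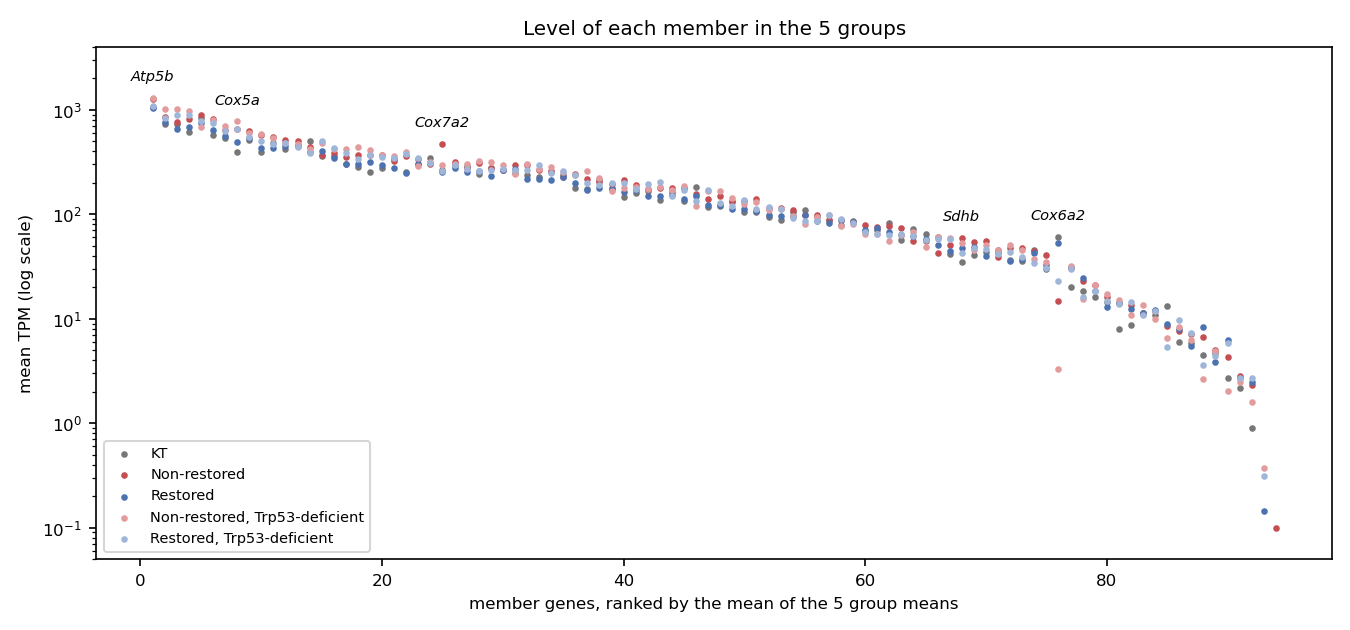
Mean TPM (log scale) of each member gene in each of the 5 groups (colored points), with genes ranked by the mean of the 5 group means. The points of 1 gene lie close together over most of the range, from Atp5b at a mean of 1156 TPM downwards, and Cox6a2 is the tissue-restricted isoform whose groups spread apart.

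The first comparison asked how turning Lkb1 back on changed these genes. Restored tumors had less Cox7a2, a small subunit of complex IV, than non-restored tumors, and no other member passed the test. In bulk RNA, fewer cells of a type and less RNA per cell cannot be told apart. Across the 89 tested members 0 rose and 1 fell at an adjusted p under 0.05, which is 1.12% of them, against 1.87% of the 12636 genes tested (edgeR's quasi-likelihood test, Benjamini-Hochberg adjusted). At an unadjusted p under 0.05 there were 15 members (16.9%; 15.1% of all genes), 14 of them lower in restored tumors. DESeq2 called 1 higher and 3 lower of 92 members (Cox6a2, and Cox7a2, Ndufb9 and Ndufc2), where it called 2.99% of all genes. The differences were small and leaned to one side: 66 of 89 members were lower in restored tumors, and the median difference was -0.12 on the log2 scale against -0.01 over all genes, while 25.8% were higher against 48.2% of all genes. All but 2 of the 89 stayed within 0.5 of 0 on the log2 scale. The paper's proteomics went the other way: proteins of oxidative phosphorylation were enriched among those more abundant in restored tumors. RNA and protein are different measures, and the proteins were not analysed here. Markers listed for other cells were read in restored against non-restored tumors as well. The 4 tested of 7 immune markers were all higher in restored tumors (median log2 fold change 1.38, 3 at an unadjusted p under 0.05, 0 adjusted in edgeR or DESeq2), and the list summed to 18.2 to 367.2 CPM in restored and 12.4 to 128.4 CPM in non-restored libraries. Lyz1 had the highest restored median on this list, at 36.7 CPM against 9.47 CPM in non-restored libraries. For Cd68 these medians were 14.7 and 6.22 CPM. The paper names LYZ2 among alveolar type II markers with more protein in restored tumors. Whether Lyz1 RNA came from immune or tumor cells was not tested. Tppp3, the 1 tested of 6 ciliated airway markers, was at -1.55 on the log2 scale (adjusted p = 0.0699 in edgeR, called by DESeq2), and that list summed to 5.17 to 14.9 and 3.26 to 32.3 CPM. The 4 tested endothelial markers were lower (median -0.83, 0 at an unadjusted p under 0.05). Fibroblast markers were higher at 2 of 6 (median -0.26, 1 at an unadjusted p under 0.05) and pericyte and smooth muscle markers at 1 of 5 tested (median -0.28, 0). EdgeR called 0 markers on all of these lists. The part of these cells in the lean was not tested.

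By role, complex III, which carries electrons from ubiquinol to cytochrome c, was lower in restored tumors at all 8 subunits, with a median of -0.18 on the log2 scale. The accessory subunits of complex I were lower at 23 of 29 (median -0.13), complex IV at 11 of 13 tested (median -0.15) and complex V at 13 of 16 (median -0.11). Complex II and the assembly factors did not lean this way: 2 of 4 complex II subunits, 3 of 4 of its assembly factors and 4 of 8 complex I assembly factors were higher in restored tumors. Of the complex III subunits, 4 had an unadjusted p under 0.05 and 0 passed the adjusted threshold in edgeR. The lowest p belonged to Uqcrfs1, the Rieske iron-sulfur protein. Uqcrfs1 lay at 77.4 to 113 CPM (median 99.6) in restored and 96.6 to 150 CPM (median 119) in non-restored libraries; the difference was -0.31 on the log2 scale with an SE of 0.104 (adjusted p = 0.144). The ranges of Uqcrfs1 overlapped.

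**Figure D2:**
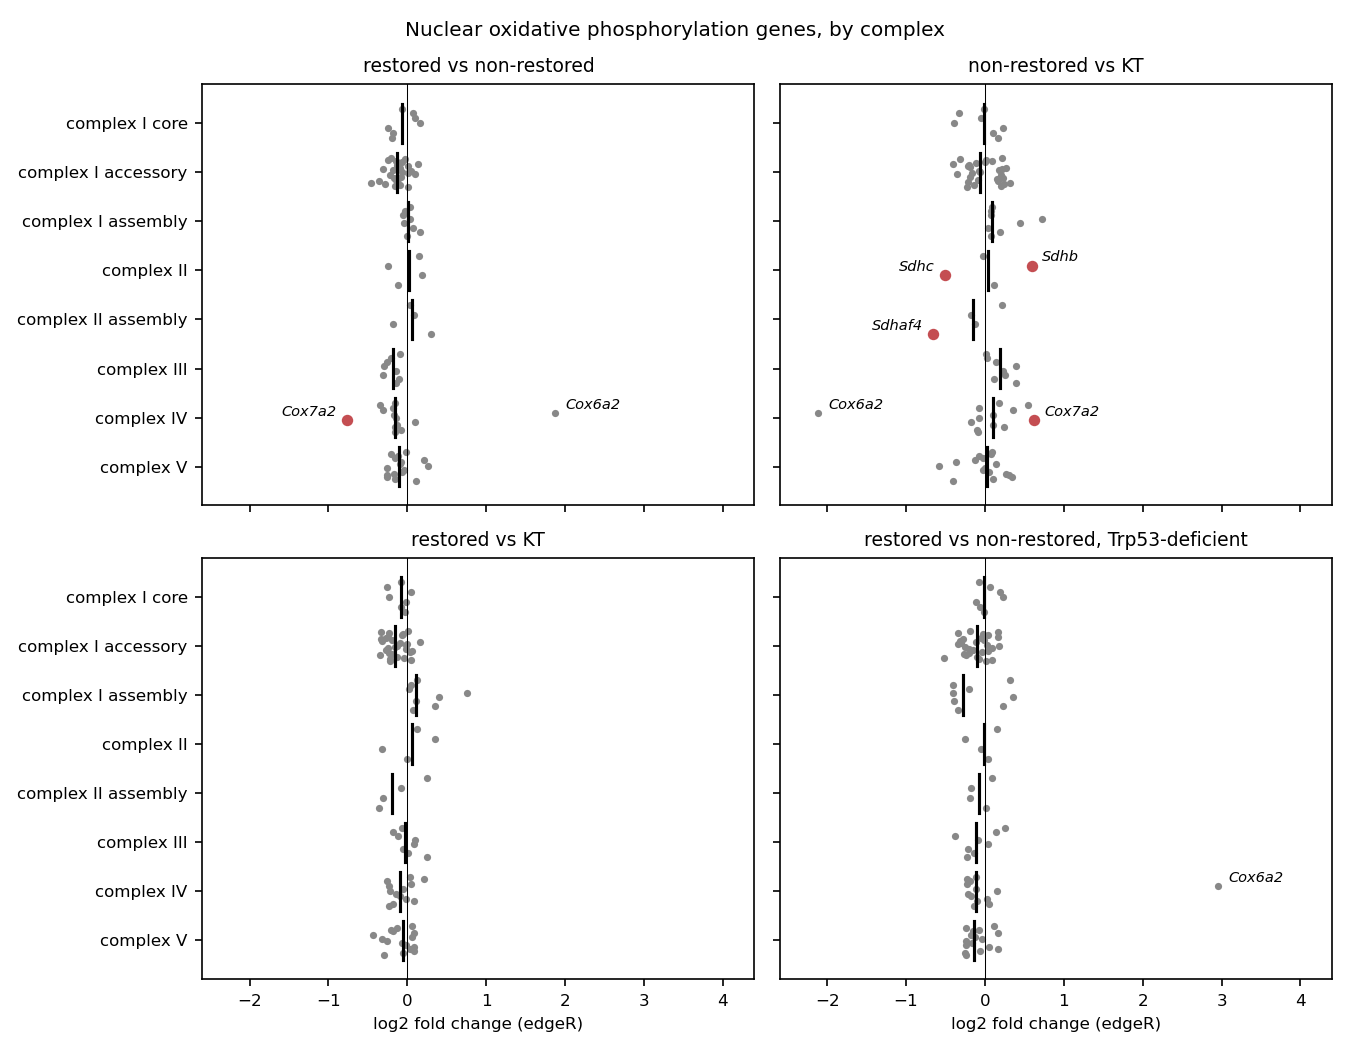
Log2 fold change (edgeR) of each tested member, grouped by complex, in 4 comparisons; the black bar is the median of a group and red points passed an adjusted p of 0.05. Cox7a2 is red in both upper panels, at -0.77 in restored against non-restored and 0.63 in non-restored against KT, while Sdhb, Sdhc and Sdhaf4 are red in the second of these and no point is red in the lower panels.

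Summed over members, the share of all counts was 0.736% ± 0.054 (SD, n = 4) in KT, 0.796% ± 0.050 (SD, n = 10) in non-restored and 0.703% ± 0.060 (SD, n = 7) in restored libraries. In TPM, the sum ran from 17160 to 19730 in KT, from 19650 to 24680 (median 21250) in non-restored and from 16190 to 20950 (median 18360) in restored libraries. The restored and non-restored ranges overlapped between 19650 and 20950 TPM. Complexes IV and V made up the largest parts. Complex IV summed to 6604 TPM ± 611 (SD, n = 10) in non-restored and 5449 ± 429 (SD, n = 7) in restored tumors, and complex V to 6630 TPM ± 513 (SD, n = 10) and 5707 ± 623 (SD, n = 7). TPM values share a fixed total, so a sum over many genes also moves with what the other genes do.

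**Figure D3:**
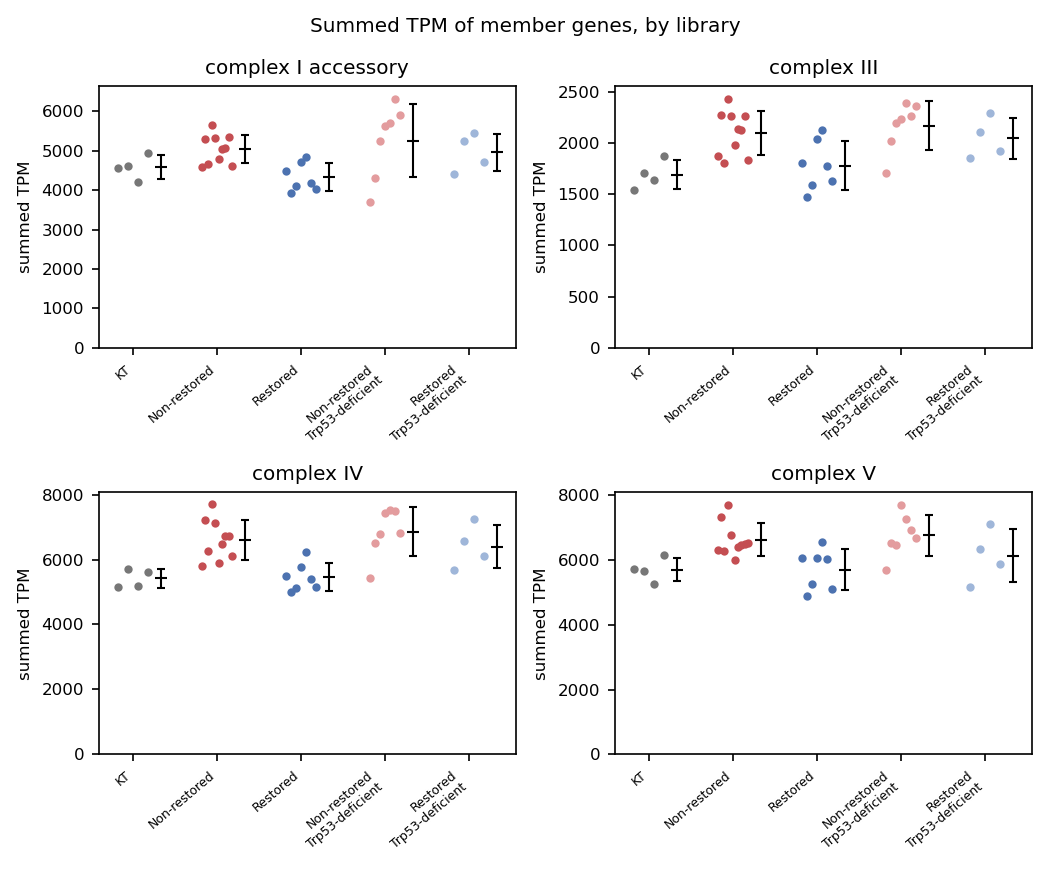
Summed TPM of the member genes of complex I (accessory subunits), III, IV and V in each library, by group, with the group mean and SD to the right of the points. Non-restored libraries sit higher than restored libraries on average in each panel, as for complex IV with 6604 against 5449 TPM, and the ranges overlap.

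Cox7a2 encodes the ubiquitous form of subunit 7a of complex IV and lies on the minus strand at chr9:79755361-79759878 (GRCm38). The KT libraries had 106.8, 64.7, 68.3 and 77.7 CPM of Cox7a2. Non-restored libraries had 83.4 to 153.6 CPM (median 122.1) and restored libraries 58.6 to 97.0 CPM (median 64.5). Cox7a2 in 9 of 10 non-restored libraries exceeded the highest restored library, and 5 of 7 restored libraries lay below the lowest non-restored library. Restored tumors were 1.70-fold lower (log2 fold change -0.77, SE 0.139, edgeR adjusted p = 0.00438). The call held with each of the 21 libraries left out (-0.84 to -0.72, adjusted p = 0.00204 to 0.0168) and among females (-0.85, adjusted p = 0.00194). Against the 4 tamoxifen-treated non-restored libraries alone the difference was -0.68 and missed the threshold (adjusted p = 0.0925), while against the 6 vehicle libraries it was -0.82 (adjusted p = 0.0112). The start region of Cox7a2, from 250 bases before to 50 after the transcription start, is shown because it belongs to the member that moved in both main comparisons; it spans chr9:79759804-79760103 on the minus strand (RefSeq, GRCm38.p6) and holds none of the 6 motifs searched below.

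Cox7a2: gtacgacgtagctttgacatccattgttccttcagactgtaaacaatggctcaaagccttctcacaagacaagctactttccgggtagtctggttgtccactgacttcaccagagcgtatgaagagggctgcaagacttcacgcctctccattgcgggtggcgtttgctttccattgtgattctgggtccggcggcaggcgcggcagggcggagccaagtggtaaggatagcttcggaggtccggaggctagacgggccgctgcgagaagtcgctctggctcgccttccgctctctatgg

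**Figure D4:**
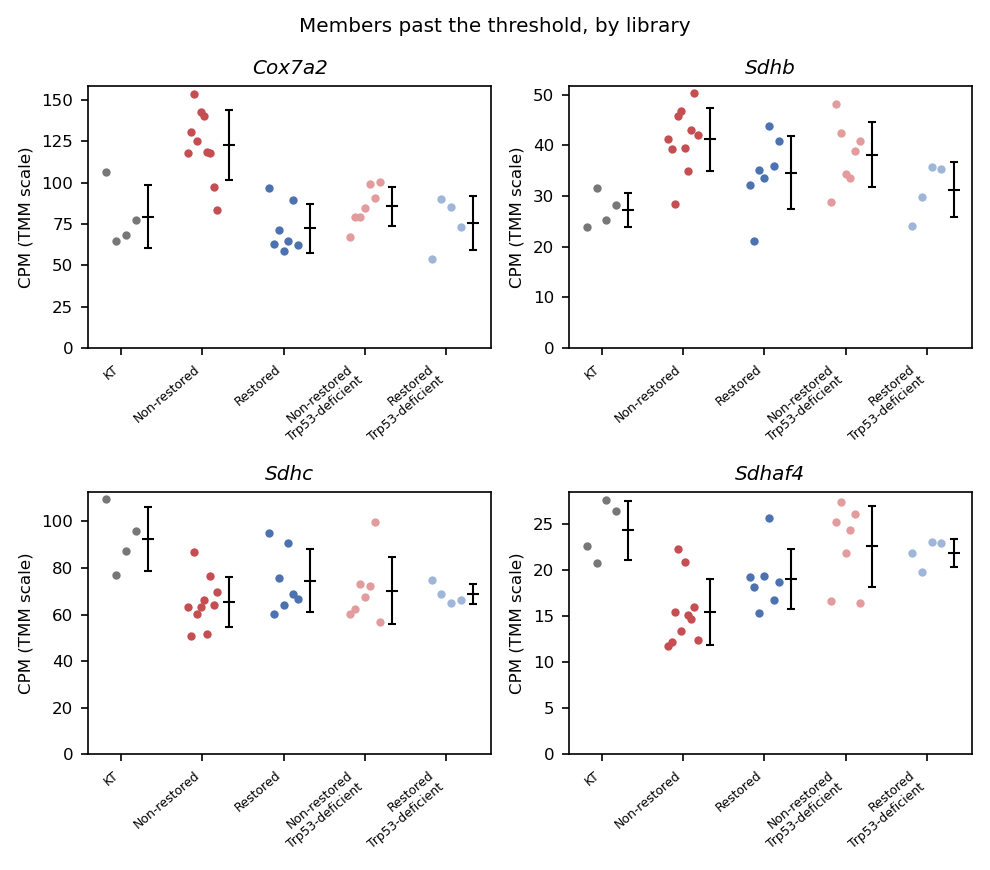
CPM of the members that passed the test in a Trp53 wild-type comparison, 1 point per library in each of the 5 groups, with the group mean and SD. For Cox7a2 the non-restored libraries (83.4 to 153.6 CPM) stand above most restored and KT libraries, whereas the Trp53-deficient groups lie between 53.7 and 100.3 CPM.

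Among the members that did not pass, Cox6a2, described further on, had the largest difference (1.87 on the log2 scale). The next largest on the lower side were a pair of small accessory subunits of complex I. Ndufc2 lay at 76.8 to 109.9 CPM (median 99.1) in restored and 84.95 to 164 CPM (median 135.9) in non-restored libraries, or -0.46 on the log2 scale (SE 0.126, adjusted p = 0.0648). Ndufb9 lay at 72.3 to 106.0 CPM (median 86.8) and 93.9 to 130.0 CPM (median 107.5), or -0.36 on the log2 scale (SE 0.0988, adjusted p = 0.0642). For Ndufc2 7 and for Ndufb9 6 of 10 non-restored libraries stood above every restored library. On the higher side, Cox6a2 was followed by Sdhaf4 (0.30) and by Atp5g2, a c-ring subunit of ATP synthase, at 0.27 (SE 0.287, adjusted p = 0.731). The Atp5g2 value is uncertain, since 74.0% of the reads of Atp5g2 and its near-identical pseudogenes were counted on the pseudogenes, and the difference was -0.08 once these were summed. The catalytic or core subunits chosen to stand for each complex did not pass, and all but Sdha (0.15) had negative log2 fold changes. These were -0.07 for Ndufs1 and -0.18 for Ndufv1 of complex I, -0.24 for Sdhb, -0.30 for Uqcrc1 and -0.31 for Uqcrfs1 of complex III, -0.15 for Cox4i1 and -0.34 for Cox5a (adjusted p = 0.251) of complex IV, and -0.02 for Atp5a1 and -0.21 for Atp5b of complex V.

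The next comparison set non-restored tumors, which lost Lkb1, against KT tumors, which differed in virus dose and title letters too. Non-restored tumors had more Cox7a2 and more Sdhb, and less Sdhc and less Sdhaf4. The last 3 belong to complex II, succinate dehydrogenase, the enzyme shared by the respiratory chain and the tricarboxylic acid (TCA) cycle. These were 2 members higher and 2 lower, 4.49% of the 89 tested, against 5.86% of all 12636 genes. At an unadjusted p under 0.05, 10 were higher and 9 lower (21.3%; 20.8% of all genes), and DESeq2 called 4 higher and 5 lower (6.93% of all genes), these 4 members among them. The median log2 fold change was 0.07 against 0.03 over all genes, with 51 of 89 members higher. The 8 complex III subunits were all higher in non-restored tumors (median 0.19), as were the 8 complex I assembly factors (median 0.09), while the other groups were split. In the same comparison the 6 fibroblast and the 4 tested endothelial markers were all higher in non-restored tumors (median log2 fold changes 1.57 and 2.30, with 1 and 0 at an unadjusted p under 0.05). Pericyte and smooth muscle markers were higher at 4 of 5 tested (median 1.36, 2 at an unadjusted p under 0.05) and immune markers at 3 of 4 (median 1.16, 0). Tppp3 of the ciliated airway list stood at 1.55 (edgeR adjusted p = 0.114). On these lists edgeR and DESeq2 called 0 markers. The part of these cells in the members' values was not tested.

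Sdhb is the iron-sulfur subunit of complex II. It lies on the plus strand at chr4:140961203-140979193 (GRCm38). The KT libraries had 24.0, 31.5, 25.2 and 28.3 CPM of Sdhb, and the non-restored libraries 28.5 to 50.3 CPM (median 41.6). All but 1 of the 10 non-restored libraries exceeded every KT library, and Sdhb was 1.51-fold higher (log2 fold change 0.59, SE 0.167, edgeR adjusted p = 0.0364). Restored libraries spanned 21.2 to 43.8 CPM (median 35.2) and overlapped with both groups. The start region of Sdhb, at chr4:140961021-140961320 on the plus strand (RefSeq, GRCm38.p6), is shown with its GABP/ETS match CCGGAAG in capitals.

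Sdhb: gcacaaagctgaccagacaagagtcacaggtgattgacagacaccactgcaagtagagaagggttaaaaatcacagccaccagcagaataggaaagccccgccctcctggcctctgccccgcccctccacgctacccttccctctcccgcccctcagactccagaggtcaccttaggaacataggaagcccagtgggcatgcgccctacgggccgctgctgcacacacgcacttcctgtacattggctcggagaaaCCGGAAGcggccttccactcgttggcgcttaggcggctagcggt

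Sdhc, a membrane anchor of complex II on the minus strand at chr1:171127165-171150603, went the other way. The KT libraries had 109.5, 77.2, 87.5 and 96.0 CPM of Sdhc, and the non-restored libraries 51.0 to 86.9 CPM (median 63.8). All but 1 of the non-restored libraries lay below every KT library, and Sdhc was 1.42-fold lower (log2 fold change -0.51, SE 0.142, edgeR adjusted p = 0.0367). Per transcript length the gap was narrower, at 46.0 TPM ± 2.34 (SD, n = 4) in KT and 38.9 TPM ± 6.89 (SD, n = 10) in non-restored tumors. With the effective transcript lengths in the fit the log2 fold change was -0.40 (adjusted p = 0.201). Sdha, the catalytic subunit, and Sdhd, the other anchor, had log2 fold changes of -0.03 and 0.11 (adjusted p = 0.925 and 0.782).

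Sdhaf4 helps to join Sdha to Sdhb and lies on the minus strand at chr1:23995939-24005656. An annotated transcript on the other strand, Gm26524, overlaps it and had 0 counts. The KT libraries had 22.6, 20.8, 27.7 and 26.4 CPM of Sdhaf4, and the non-restored libraries 11.8 to 22.3 CPM (median 14.9). Of 10 non-restored libraries 8 lay below every KT library, and Sdhaf4 was 1.57-fold lower (log2 fold change -0.65, SE 0.173, edgeR adjusted p = 0.0269). Restored libraries, at 15.3 to 25.7 CPM (median 18.8), differed from neither group by the test, with log2 fold changes of 0.30 against non-restored (adjusted p = 0.340) and -0.36 against KT tumors (adjusted p = 0.508). The start region of Sdhaf4, at chr1:24005591-24005890 on the minus strand (RefSeq, GRCm38.p6), is shown beside that of Sdhb because these partners moved in opposite directions; it holds none of the 6 motifs.

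Sdhaf4: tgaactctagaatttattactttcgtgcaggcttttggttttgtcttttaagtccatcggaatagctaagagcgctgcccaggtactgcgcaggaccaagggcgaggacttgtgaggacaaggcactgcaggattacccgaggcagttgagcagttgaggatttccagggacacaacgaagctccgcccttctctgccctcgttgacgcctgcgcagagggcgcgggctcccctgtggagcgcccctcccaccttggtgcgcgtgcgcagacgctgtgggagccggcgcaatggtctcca

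Cox7a2 was 1.54-fold higher in non-restored than in KT tumors (log2 fold change 0.63, SE 0.170, adjusted p = 0.0314), and 8 of 10 non-restored libraries exceeded all 4 KT libraries. These 4 calls rested on 4 KT libraries. Leaving out KT replicate 1 ended the calls of Sdhb, Sdhc and Sdhaf4 (adjusted p = 0.0643 to 0.176), leaving out replicate 2 ended that of Cox7a2 (0.105), and leaving out replicate 3 or 4 ended all 4 (0.0708 to 0.126). Without non-restored replicate 5 or 9 the call of Sdhb was lost as well (adjusted p = 0.0505 and 0.0539), and without non-restored replicate 1, 2, 4, 5, 7 or 9 that of Sdhc (0.0501 to 0.0542). With sex as a covariate Cox7a2 and Sdhc were not called. Among females Cox7a2 stayed called (0.97, edgeR adjusted p = 0.0259) and Sdhb, Sdhc and Sdhaf4 did not. The KT median of Cox7a2 was 66.5 CPM in 2 females and 92.3 CPM in 2 males. With effective-length offsets Sdhb and Sdhc were not called.

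Further members of this comparison stood near the threshold. Ndufaf4, a complex I assembly factor, had the highest fold change of the 89 members but did not pass, at 6.85 to 20.8 CPM (median 11.04) in KT and 11.2 to 26.9 CPM (median 19.6) in non-restored libraries (log2 fold change 0.73, SE 0.267, adjusted p = 0.113). Ndufa3 and Uqcrc1 were singled out after their values were seen, for KT and non-restored ranges that did not meet. How many of all genes separate in this way was not counted. Ndufa3, an accessory subunit of complex I, lay at 46.5 to 56.9 CPM in KT and 35.5 to 43.9 CPM in non-restored libraries (log2 fold change -0.40, adjusted p = 0.0507); DESeq2 called it (adjusted p = 0.0437), as did edgeR with at least 10 counts in every library (0.0498), in a fit of these 2 groups (0.0444) and with pseudogenes summed (0.0471). Uqcrc1, a core protein of complex III, lay at 28.1 to 35.69 CPM in KT and 35.73 to 46.2 CPM in non-restored libraries (log2 fold change 0.39, adjusted p = 0.169).

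Restored tumors were then set against KT tumors, both with active Lkb1. No member passed the test (0 of 89, against 0.459% of all genes), 5 had an unadjusted p under 0.05 (5.62%; 10.5% of all genes) and DESeq2 called 1 lower (1.12% of all genes). The median log2 fold change was -0.06 against 0.01 over all genes. Cox7a2 differed by -0.14 between these groups. The member called by DESeq2 was Atp5f1, a stator subunit of ATP synthase, at 427.1 to 515.5 CPM in KT and 269.4 to 408.0 CPM in restored libraries. In edgeR its log2 fold change was -0.44 (SE 0.119, adjusted p = 0.114). The 6 fibroblast markers and the 4 tested immune markers were all higher in restored tumors (median log2 fold changes 1.31 and 2.50, each with 2 at an unadjusted p under 0.05). So were the 4 tested endothelial and 5 tested pericyte and smooth muscle markers (1.40 and 0.92, 0 in each). On these lists edgeR called 0 and DESeq2 called 1 immune marker. The part of these cells in the members' values was not tested. The 3 comparisons above share libraries, so their values are not independent of each other.

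Cox6a2, the heart and skeletal muscle isoform of subunit 6a of complex IV, had the largest difference of any tested member in restored against non-restored tumors, on both Trp53 backgrounds, and in non-restored against KT tumors. It lies on the minus strand at chr7:128205435-128206387, and its overlapping neighbor on the other strand, Itgad, had 2 counts in all. The KT libraries had 11.6, 45.7, 27.3 and 14.4 CPM of Cox6a2. Non-restored libraries had 0 to 14.0 CPM (median 3.39) and restored libraries 5.17 to 44.9 CPM (median 13.5). Of 10 non-restored libraries 6 lay below every restored library and 8 below every KT library. The log2 fold change was 1.87 (SE 0.604, adjusted p = 0.127) for restored over non-restored and -2.11 (SE 0.701, adjusted p = 0.0813) for non-restored over KT, so neither passed in edgeR, while DESeq2 called both (1.93, adjusted p = 0.0499, and -2.18, adjusted p = 0.0431). The arms of the non-restored group differed in median, at 1.76 CPM in 6 vehicle and 10.8 CPM in 4 tamoxifen libraries (log2 fold change 1.48, SE 0.794, adjusted p = 0.9999). Against the vehicle arm alone the restored group was 2.65 higher (adjusted p = 0.0520), and against the tamoxifen arm alone 1.19 higher (adjusted p = 0.515).

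**Figure D5:**
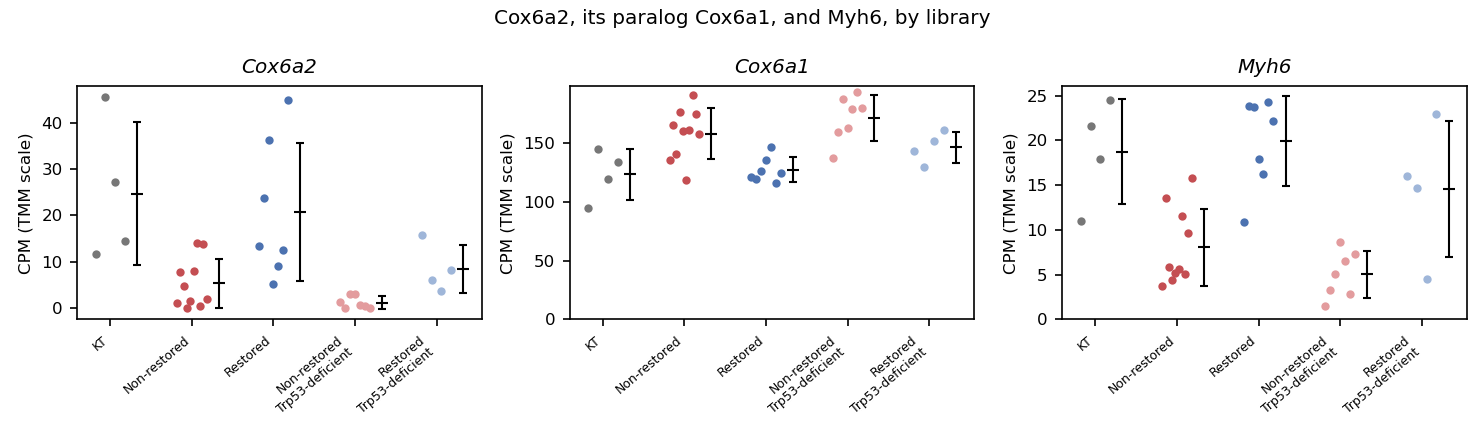
CPM of Cox6a2, its ubiquitous paralog Cox6a1 and the cardiac gene Myh6, 1 point per library in each of the 5 groups, with the group mean and SD. Cox6a2 and Myh6 are lower in most non-restored than in restored and KT libraries, with Cox6a2 medians of 3.39, 13.5 and 20.8 CPM, while the Cox6a1 median is higher in non-restored libraries (160.5 CPM) than in restored (124.9 CPM) and KT libraries.

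In Trp53-deficient tumors, where 0.0% of all genes passed in edgeR, Cox6a2 did not pass either. The 4 non-restored animals had 1.54, 1.98, 0.355 and 0 CPM of Cox6a2, from 0 to 11 counts per library, and the 4 restored animals 15.8, 6.07, 3.59 and 8.26 CPM, from 8 to 70 counts. The log2 fold change was 2.96 (SE 0.725, unadjusted p = 0.00229), with an adjusted p = 0.804 in edgeR and 0.0303 in DESeq2. Non-restored values of at most 3 counts in 4 of 7 libraries make the size of this fold loose.

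The ubiquitous partner isoform, Cox6a1, was much more abundant, and its differences, which did not pass in edgeR, had the opposite sign. Cox6a1 lay at 95.2 to 145.3 CPM (median 126.7) in KT, 118.8 to 191.0 CPM (median 160.5) in non-restored and 116.5 to 146.9 CPM (median 124.9) in restored libraries. Its log2 fold change was -0.31 in restored against non-restored (SE 0.0996, adjusted p = 0.121) and 0.36 in non-restored against KT (SE 0.122, adjusted p = 0.0885). Per length, Cox6a2 made up 12.8% ± 5.61 (SD, n = 4) of the Cox6a1 and Cox6a2 TPM in KT, 2.58% ± 2.44 (SD, n = 10) in non-restored and 10.97% ± 7.12 (SD, n = 7) in restored libraries. In Trp53-deficient tumors the share was 0.547% ± 0.600 (SD, n = 7 libraries of 4 animals) and 4.27% ± 2.58 (SD, n = 4). The start region of Cox6a1, at chr5:115348909-115349208 on the minus strand (RefSeq, GRCm38.p6), is shown as the partner of the isoform that differed; the capitals mark overlapping NRF1 matches (GCGCATGCG on both strands) and a GABP/ETS match on the other strand.

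Cox6a1: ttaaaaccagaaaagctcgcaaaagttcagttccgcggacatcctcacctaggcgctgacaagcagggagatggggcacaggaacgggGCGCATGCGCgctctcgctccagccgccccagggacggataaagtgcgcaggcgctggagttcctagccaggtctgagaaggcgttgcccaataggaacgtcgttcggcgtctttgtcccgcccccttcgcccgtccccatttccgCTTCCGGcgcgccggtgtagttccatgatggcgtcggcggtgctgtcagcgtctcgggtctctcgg

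Because Cox6a2 is a muscle gene, markers of cardiac muscle, which surrounds pulmonary veins in mice, were read beside it. Myh6, the alpha heavy chain of cardiac myosin, moved with Cox6a2: it lay at 10.9 to 24.5 CPM (median 19.7) in KT, 3.75 to 15.8 CPM (median 5.75) in non-restored and 10.9 to 24.3 CPM (median 22.2) in restored libraries. Its log2 fold change was 1.33 in restored against non-restored (adjusted p = 0.0102), -1.24 in non-restored against KT (adjusted p = 0.0238) and 1.54 in restored against non-restored Trp53-deficient tumors (adjusted p = 0.803). Of the 10 markers 1 passed in each of the first pair of comparisons, and 2 were abundant enough to test there. The second of these, Ryr2, the calcium release channel of the heart, had a log2 fold change of 0.02 in restored against non-restored tumors. In non-restored against KT tumors it had the sign opposite to Myh6 and Cox6a2, at 2.40 (SE 0.819, edgeR adjusted p = 0.0899). DESeq2 tested 4 of the 10 markers in each of these comparisons. It called 1 in restored against non-restored and 2 in non-restored against KT tumors (2.99% and 6.93% of all genes). The other 8 summed to 1.22 to 2.88 CPM per library in KT, 0.687 to 5.81 in non-restored, 0.688 to 4.18 in restored, 0.548 to 6.41 in Trp53-deficient non-restored and 4.74 to 9.05 in Trp53-deficient restored tumors. Nppa was at 0 counts in 32 of 32 libraries, and Actc1 and Tnnc1 in 29 each. All 10 together summed to 13.7 to 38.2, 14.3 to 70.9, 23.9 to 85.3, 3.84 to 31.9 and 16.7 to 30.2 CPM in these 5 groups. The part of cardiac cells in the Cox6a2 values was not tested.

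Trp53-deficient tumors were tested with 1 value per animal, 4 restored against 4 non-restored. No member passed (0 of 89; 0.0% of all 12518 genes), 3 had an unadjusted p under 0.05 (3.37%; 5.98% of all genes) and DESeq2 called 1, Cox6a2 (0.17% of all genes). Of the members, 59 of 89 were lower in restored tumors, and the members' median was -0.10 on the log2 scale against 0.02 over all genes. Complex V was lower at 12 of 16 members (median -0.14) and complex I accessory subunits at 20 of 29 (median -0.10). The lowest was Ndufs4, an accessory subunit of complex I, at -0.52 on the log2 scale (SE 0.228, adjusted p = 0.803). Cox7a2 was at 73.3, 90.7, 90.2 and 100 CPM in the non-restored and 53.7, 89.3, 84.4 and 73.6 CPM in the restored animals, which overlapped (log2 fold change -0.21).

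An interaction term tested whether restoration acted differently with and without Trp53. No member passed (0 of 90 tested with Cox6b2 added; 0.0% of all 13705 genes), 1 had an unadjusted p under 0.05 (1.11%; 3.09% of all genes) and DESeq2 called 0 (0.0% of all genes). That 1 was Cox7a2, whose log2 difference on restoration was 0.53 higher in Trp53-deficient than in wild-type tumors (SE 0.232, unadjusted p = 0.0325, adjusted p = 1.0).

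Between the Trp53 backgrounds at the same Lkb1 state, the members stood slightly higher in Trp53-deficient tumors. Among non-restored tumors 0 of 90 passed in edgeR (0.598% of all genes), 13 had an unadjusted p under 0.05, 10 of them higher (14.4%; 17.7% of all genes), and DESeq2 called Cox7c (2.92% of all genes). The median log2 fold change was 0.11 against -0.02 over all genes, and 59 of 90 members were higher. Among restored tumors 0 of 90 passed (0.372% of all genes), 13 had an unadjusted p under 0.05, 12 of them higher (14.4%; 15.5% of all genes), and DESeq2 called Cox7c and Ndufc2 (1.52% of all genes). The median there was 0.07 against 0.00 over all genes, with 60 of 90 higher. Cox7c, a small complex IV subunit, lay at 181.1 to 254.3 CPM (median 202.8) in wild-type and 239.4 to 273.9 CPM (median 257.5) in Trp53-deficient non-restored libraries. Ndufa4 was higher by 0.47 and 0.45 on the log2 scale in the non-restored and restored states (adjusted p = 0.149 and 0.237). Cox7a2 went against this lean among non-restored tumors, at -0.47 (SE 0.162, adjusted p = 0.146).

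The non-restored group mixed arms that differed in drug and in FLPo-ERT2, and these were compared as well. No member passed between 4 tamoxifen and 6 vehicle libraries (0 of 89; 0.00791% of all genes), 4 had an unadjusted p under 0.05 (4.49%; 4.61% of all genes) and DESeq2 called 0 (0.0955% of all genes). The members were nevertheless higher in the tamoxifen arm at 71 of 89 (79.8% against 53.6% of all genes), and their median was 0.10 on the log2 scale against 0.02. Tamoxifen and the absence of FLPo-ERT2 cannot be told apart in these arms.

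Genes that work around the complexes were counted from 6 lists. These held the TCA cycle (13 genes), electron carriers and ubiquinone synthesis (18), assembly and insertion factors (40), carriers and uncouplers of the inner membrane and pores of the outer membrane (10), copying of mitochondrial DNA and handling of its RNA (23), and nuclear regulators (15). In restored against non-restored tumors 0 of 108 tested genes passed in edgeR (1.87% of all genes) and 15 had an unadjusted p under 0.05 (13.9%; 15.1% of all genes). The carriers were lower in restored tumors at 7 of 7 tested genes (median log2 fold change -0.20) and the TCA cycle at 11 of 13 (median -0.12). Fh1, which is fumarase, stood at -0.47 on the log2 scale (SE 0.128, adjusted p = 0.0628) and Cycs, which is cytochrome c, at -0.75 (SE 0.250, adjusted p = 0.137). With non-restored set against KT tumors, 1 gene passed as higher and 2 as lower (2.78%; 5.86% of all genes), with 17 at an unadjusted p under 0.05 (15.7%; 20.8% of all genes). Slc25a5, which exchanges ADP and ATP across the inner membrane, was higher (log2 fold change 0.64, SE 0.159, adjusted p = 0.0188). Coq8a, needed for ubiquinone synthesis, was among the lower (-1.18, SE 0.318, adjusted p = 0.0291). In restored against KT and in restored against non-restored Trp53-deficient tumors 0 of 108 passed (0.459% and 0.0% of all genes), with 10 and 6 at an unadjusted p under 0.05 (9.26% and 5.56%; 10.5% and 5.98% of all genes). DESeq2 called 1 of 111 list genes in restored against non-restored (2.99% of all genes) and 3 of 111 in non-restored against KT (6.93% of all genes). In the other pair it called 0 of 111 and 0 of 110 (1.12% and 0.17% of all genes).

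Start regions were searched for 6 short motifs of factors known for regulating respiratory genes, on both strands. RefSeq start regions (300 bases each, GRCm38.p6) were matched for 80 of 96 members, with 2 of these by an older symbol. NRF1 sites (GCGCATGCG) were found in 12.5% of the members against 1.95% of 27025 genes, GABP/ETS sites (CCGGAAG) in 26.2% against 9.93%, YY1 sites (AAGATGGCG) in 10.0% against 1.64%, ERR sites (TCAAGGTCA) in 2.5% against 0.466% and cAMP response elements (TGACGTCA) in 5.0% against 2.03%. The E-box CACGTG was in 7.5% against 8.09%. The NRF1 letters nearly repeat on the other strand, a YY1 match can share AAG with a GABP/ETS match, and 37 of 80 members held at least 1 of the motifs other than the E-box. The share of all 27025 genes with any of these was not counted. Those genes were not matched to the members in expression or base content. A match is a run of letters and was not tested for binding here.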

How the data were processed

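RNA from sorted lung tumor cells was made into rRNA-depleted libraries and quantified by the authors with STAR 2.6.1d and RSEM 1.2.30 against mm10, which gave the deposited expected counts, TPM and effective lengths per gene and library. The deposited normalized counts and the authors' comparisons (fold changes and p-values from DESeq2 1.26.0) were not used. Expected counts were rounded, scaled by TMM, filtered with filterByExpr and tested with edgeR 4.0.16 (quasi-likelihood, R 4.3.3) over all genes, with an adjusted p of 0.05 as the threshold. DESeq2 1.42.0 was an alternative. Trp53 wild-type libraries shared a fit; Trp53-deficient libraries were summed per animal, and the comparisons between backgrounds used a fit of all Lkb1XTR units. CPM values were TMM-scaled and compare a gene between libraries, while levels of different genes were compared in TPM. Library totals were 1302482 to 5943951; a count of 3 served as the detection floor. Intervals are SDs or SEs between libraries, and the floor covers counting error only. Members passing the test, the 3 highest and the 3 lowest fold changes per comparison, and fixed subunits of each complex were named. Gene positions came from GENCODE (GRCm38), start regions from RefSeq (GRCm38.p6). The scripts were tested on simulated counts. Members and lists were chosen with earlier results of these data known. A gene of the lists around the complexes is not reported here.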

Additional observations from a re-analysis of the deposited data

Results flagged for a closer look

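For 32 named members and for the share of counts on all members, 165 groups of 4 to 10 libraries or animals were searched. By Dixon's criterion 10 had a highest or lowest value set apart from the rest of the group. About 8.2 are given by chance at 1 in 20. Values are CPM on a scale common to all 5 groups, with Trp53-deficient libraries summed per animal, and can differ slightly from those above. In restored tumors, replicate 5 was high for Atp5b (618.8 against 387.3 to 464.5 in the others), for Sdhaf4 (25.8 against 15.3 to 19.6) and for the share of counts on all members (0.827%), and replicate 2 was low for Ndufaf6, a complex I assembly factor (0.381 against 2.94 to 4.57). Among non-restored tumors replicate 8 was high for Ndufs4 (127.5 against 34.6 to 82.2). Among Trp53-deficient animals, single non-restored animals were high for Cox6b2 (1.15 against 0 to 0.153), Ndufaf1 (10.3 against 7.31 to 7.63) and Ndufaf6 (3.72 against 2.13 to 2.29). Single restored animals were low for Atp5a1 (387.3 against 474.1 to 483.1) and high for Atp5f1 (377.2 against 312.6 to 320.6). Their causes were not tested.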

How the results depend on the processing

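The median log2 fold change of the members moved by less than the 0.123 spread between replicates under every alternative run, and no setting shifted the median of all genes by more than 0.084. In restored against non-restored tumors this median was -0.123 in the main fit. It was -0.143 to -0.088 with 1 library left out and -0.205 to -0.068 under the other settings. The spread is about as large as this median, so staying within it does not show that the size of the lean is stable. Counts of called members moved more. Apart from the DESeq2 shares above, no share of all genes is set beside them. They therefore do not compare the members with other genes. In restored against non-restored tumors (1 call) DESeq2 called 4, the replicate block 2, the tamoxifen arm alone 0, and leaving out 1 library gave 1 to 2. In non-restored against KT tumors (4 calls) DESeq2 called 9; effective-length offsets, sex as a covariate, a fit of the 2 groups and the vehicle arm alone gave 2 each; no filter on low counts and female libraries alone gave 1 each; the tamoxifen arm alone gave 0; and leaving out 1 library gave 0 to 7. DESeq2 called 1 in restored against KT, 1 in restored against non-restored Trp53-deficient, 1 in Trp53-deficient against wild-type non-restored and 2 in the restored tumors, where edgeR called 0. Some uncalled genes changed sign: Atp5g2 (-0.085 with pseudogenes summed) in restored against non-restored; Ndufs1 (0.36 in females; -0.19 to 0.18 with 1 library left out, positive without KT replicate 1) and Atp5a1 (-0.11 in females) in non-restored against KT; Ndufs1 (0.18 with sex as a covariate, 0.38 in females; -0.24 to 0.12 with 1 library left out, positive without KT replicate 1) and Atp5b (0.045 in females) in restored against KT. With effective-length offsets Ndufaf4 (0.063) in Trp53-deficient restored against non-restored, Ndufaf6 (0.67) in the interaction, and Ndufaf6 (0.18) and Uqcrc1 (-0.14) in Trp53-deficient against wild-type restored tumors did too. The causes were not tested. Replicate numbers do not pair the samples: deviations of same-numbered libraries correlated at -0.05 to 0.50 over 15 pairs, 6 of them over 0.1, and 6 of 30 correlated best with their own number. With the replicate block, Cox6a2 passed in restored against non-restored (2.07, adjusted p = 0.0129) and non-restored against KT (-2.71, adjusted p = 0.00540), where 4 members were called; 0 were in restored against KT. Leaving out mitochondrially encoded genes was not run. Alternatives leaving out Trp53-deficient animals, and single libraries in the comparison of arms, were chosen after seeing the data. Depth limits the restricted isoforms, of which 4 of 8 never passed 3 counts in a library.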
